A study of Arabidopsis thaliana with 6 samples.

Results

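The 44 histone genes of Arabidopsis thaliana described here were taken by locus from a list that covers 8 genes of histone H4, 5 of H3.1, 3 of H3.3, the centromeric H3 (CENH3), 13 of H2A, 11 of H2B and 3 of linker histone H1. They were 44 of the 36793 loci in the deposited tables, and the rule uses no measured value. The members were, however, chosen with earlier results of these data known. The list divides into 27 replication-dependent genes (H4, H3.1, canonical H2A and canonical H2B), 14 variant genes (H3.3, CENH3, H2A.X, H2A.Z, H2A.W and 1 H2B variant) and 3 linker histone genes. RNA came from callus of the accession Col-0, the standard laboratory strain, grown from leaves of 2-week-old seedlings that were cut off and kept on callus-inducing medium. Callus of 12 days on that medium was set against callus of 7 days, with 3 libraries per day, described as biological replicates. No source used here says whether different plants or plates stand behind them, so p-values measure only the spread between these libraries.

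Histones are the proteins around which DNA is wound: H3, H4, H2A and H2B form the nucleosome core, and H1 binds the DNA that enters and leaves it. Replication-dependent histones are made mainly in S phase and packaged onto new DNA, while variants such as H3.3 and H2A.Z are also made outside S phase and replace them in transcribed or regulated chromatin. In plants, unlike animals, messages of the replication-dependent histones carry poly(A) tails. Callus is a mass of dividing cells, in which both kinds are made.

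H3.1 and H3.3 are told apart by few residues. The stretch around the first of them is shown because the calls differed between H3.1 and H3.3, a difference that was not itself tested. Each class is 1 protein: the 5 H3.1 genes encode identical proteins in the reference, as do the 3 H3.3 genes and the 8 H4 genes. Over 136 residues the H3.1 and H3.3 proteins differed by 4 substitutions, A31T, F41Y, S87H and A90L, with the H3.1 residue first, the H3.3 residue last and positions counted from the residue after the first methionine. The coding strands of codons 25 to 37 are printed from the RefSeq assembly TAIR10.1, with codon 31 in capitals.
H3.1 AT1G09200: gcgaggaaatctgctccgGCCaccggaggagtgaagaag
H3.1 AT3G27360: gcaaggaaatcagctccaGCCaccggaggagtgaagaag
H3.1 AT5G10390: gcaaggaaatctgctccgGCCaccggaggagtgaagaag
H3.1 AT5G10400: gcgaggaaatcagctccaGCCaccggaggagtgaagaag
H3.1 AT5G65360: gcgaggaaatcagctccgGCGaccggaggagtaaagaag
H3.3 AT4G40030: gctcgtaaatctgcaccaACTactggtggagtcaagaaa
H3.3 AT4G40040: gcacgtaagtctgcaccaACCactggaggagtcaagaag
H3.3 AT5G10980: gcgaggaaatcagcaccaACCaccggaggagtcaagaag
The 5 H3.1 genes carry an alanine codon there and the 3 H3.3 genes a threonine codon.

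A second set of sequences lies before the genes. The octamer CGCGGATC is a known element of plant histone promoters, and it is shown because 10 members share it. It was searched on both strands of the 250 bases before each annotated gene start. It stood before 10 of the 44 members (22.7%), against 37 of 27443 protein-coding genes (0.135%). Of these, 7 were replication-dependent (25.9% of 27), 2 variant (14.3% of 14) and 1 linker. A stretch around the octamer nearest to each gene start is printed on the gene's strand, from the RefSeq assembly TAIR10.1, with the octamer in capitals; where its other strand matched, the capitals read GATCCGCG.
H4 AT1G07660, chr1:2368691-2368730, plus strand: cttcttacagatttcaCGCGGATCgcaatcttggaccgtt
H4 AT5G59690, chr5:24051387-24051426, plus strand: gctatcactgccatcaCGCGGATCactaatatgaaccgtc
H3.1 AT1G09200, chr1:2972335-2972369, minus strand: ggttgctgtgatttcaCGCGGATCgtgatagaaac
H3.1 AT5G10400, chr5:3271054-3271093, minus strand: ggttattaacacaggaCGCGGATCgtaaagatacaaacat
H3.1 AT5G65360, chr5:26120684-26120723, minus strand: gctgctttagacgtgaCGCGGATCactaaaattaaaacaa
H2A HTA10, chr1:18926785-18926810, plus strand: aacggtgataaacagcGATCCGCGta
H2A HTA13, chr3:7229306-7229345, plus strand: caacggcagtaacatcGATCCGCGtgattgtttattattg
H2A.W HTA6, chr5:24116313-24116352, minus strand: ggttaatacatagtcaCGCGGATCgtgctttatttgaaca
H3.3 AT4G40040, chr4:18558946-18558978, minus strand: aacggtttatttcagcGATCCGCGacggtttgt
H1 AT1G06760, chr1:2077772-2077811, minus strand: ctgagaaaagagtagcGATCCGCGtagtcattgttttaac
AT1G09200 and HTA10 held 2 octamers each. None of the 10 canonical H2B genes held one, but 8 of these 10 held the hexamer ACGTCA, also searched on both strands. The hexamer stood before 11 members (25%), against 2110 of 27443 protein-coding genes (7.69%). The other 3 were the H3.1 genes AT3G27360 and AT5G10400 and the H3.3 gene AT5G10980. Neither of 2 further elements, CATCCAACG and TTTCCCGC, was found before a member; they stood before 0.149% and 0.619% of protein-coding genes.

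**Figure D1:**
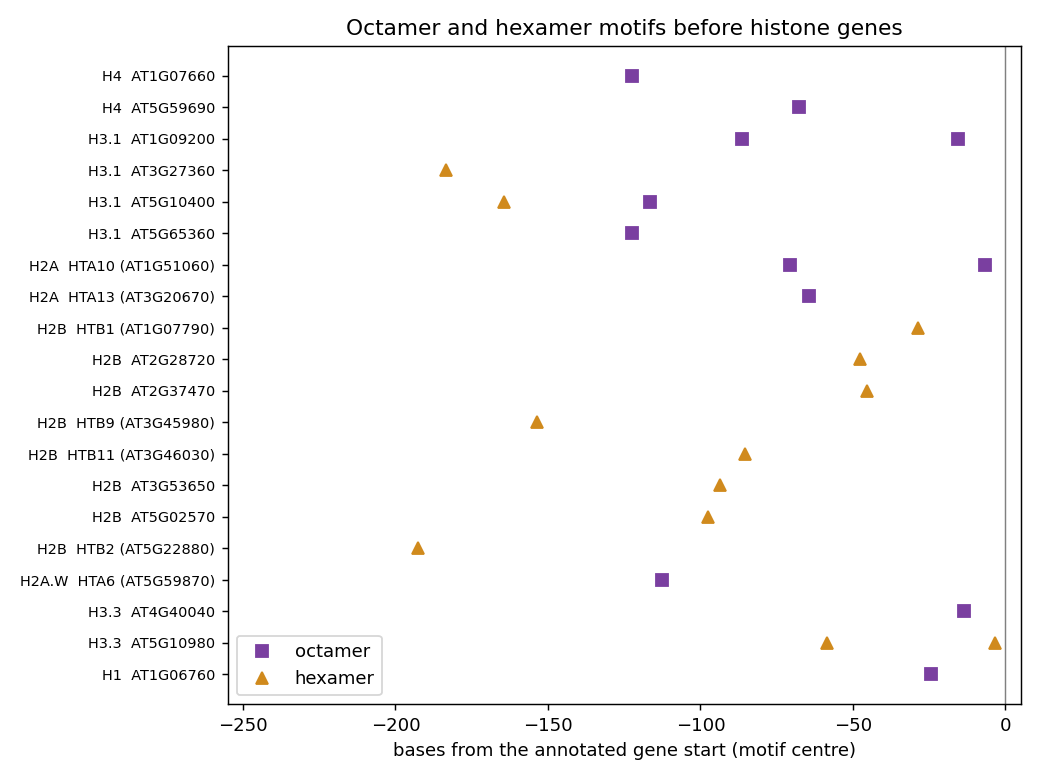
Positions of the octamer CGCGGATC (squares) and the hexamer ACGTCA (triangles) in the 250 bases before 20 histone genes; the horizontal axis gives the distance of the motif's centre from the annotated gene start in bases. Octamers lie before H4, H3.1, H2A, H2A.W, H3.3 and H1 genes, while 8 canonical H2B genes have the hexamer and none has the octamer.

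The tables held 4927953 to 10746277 counts per library. Of the 18364 genes that passed the count filter, 4616 differed between the days at an adjusted p of 0.05, with 2324 higher and 2292 lower on day 12. Ribosomal RNA loci took 1.67% to 30.7% of the TPM of a library. Levels are therefore compared between days as CPM scaled by library factors, and between genes as TPM, which is per transcript length. CPM gives the reads of a gene relative to the reads, in its library, of all genes that passed the count filter. Of 8 callus markers 6 were measurable, including WOX5 at 20.8 ± 2.90 CPM on day 12 and 24.8 ± 6.62 CPM on day 7. PLT3 and LBD16 were lower on day 12, beside 12.5% of all genes tested. WOX5, LBD18, PLT2 and PLT1 were not called, and PLT1 averaged 207 CPM on day 12 and 159 CPM on day 7 (log2 change 0.38, adjusted p = 0.129). The PLT3 and LBD16 calls were lost without day 7 replicate 1 (PLT3, adjusted p = 0.0553) and without any 1 library other than day 7 replicate 2 (LBD16, 0.0507 to 0.0934). The 8 leaf mesophyll markers summed to 45.7 to 61.8 CPM in the day 12 libraries and 111 to 175 CPM in the day 7 libraries. Of the 7 tested 6 were lower, beside the same 12.5%, with PSBX, LHCB1.1 and RBCS3B at the lowest adjusted p. LHCB1.1 and RBCS3B were near the floor, with 7 and 1 counts in all on day 12 and 82 and 64 on day 7. LBD17 and LBD29, also callus markers, had 13 and 4 counts in all on day 12 and 20 and 51 on day 7.

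Callus of day 12 held less message of most core histone genes than callus of day 7. Of the 44 members 41 passed the count filter. Of those 41, 28 were lower on day 12, 1 was higher and 12 were not called; over all genes tested 12.5% were called lower and 12.7% higher. In 30 members every day 12 library lay below every day 7 library, and in 2 every one lay above, against 22.5% and 21.2% of all genes tested. The same shares stand behind the counts of each class below. Non-overlap of the days in a gene already called is no separate support for its call. Replication-dependent genes were lower in 22 of 26 tested, variant genes in 6 of 12 and linker genes in 0 of 3. The median log2 change (day 12 minus day 7) was -0.49 for replication-dependent genes and -0.41 for variant genes, beside 0.00 over all genes tested. Most falls were small: the 28 genes called lower were 1.25 to 2.56 times lower, and only 2 fell by at least 1 on the log2 scale. RNA was taken from whole callus, so fewer cells that express a gene and less RNA per cell cannot be told apart. The loss of 1 library left 20 to 28 members called lower. Fits of log2(TPM + 1), which carry the ribosomal share of each library, called 4 lower, and 27 were called lower once TPM was rescaled without the ribosomal loci.

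**Figure D2:**
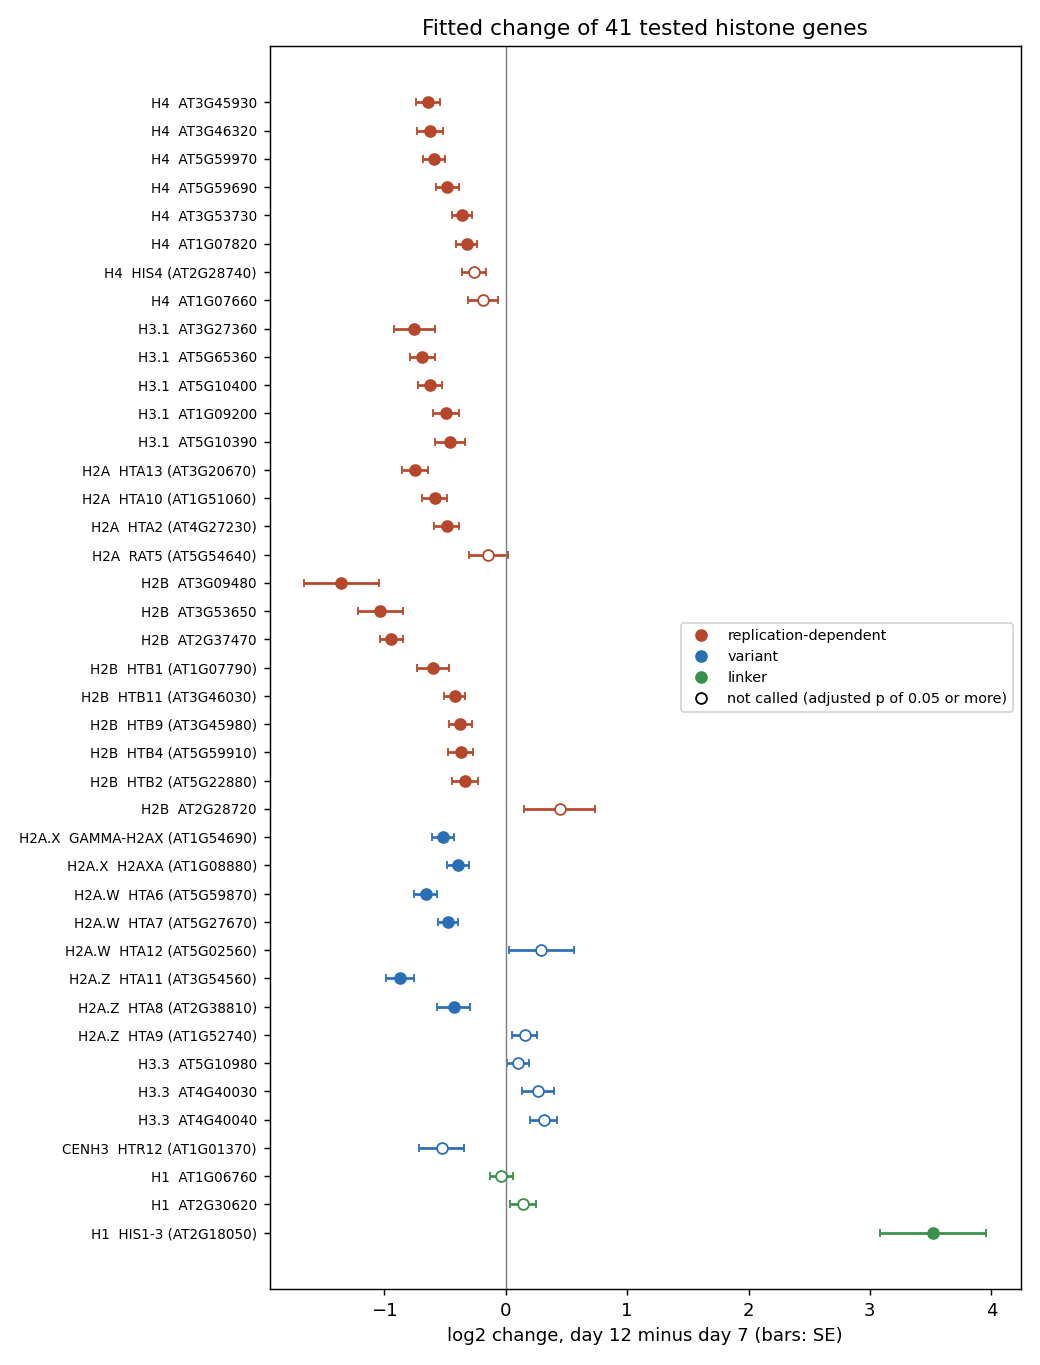
Fitted log2 change (day 12 minus day 7) of the 41 tested histone genes with its standard error as bars, grouped by class; colour gives the form, and open circles are genes that were not called. Replication-dependent genes lie mostly between -1.35 and -0.32, the 3 H3.3 genes lie right of 0 without being called, and HIS1-3 stands at 3.52.

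H4, which pairs with H3 at the heart of the nucleosome, was lower in 6 of its 8 genes, beside 12.5% of all genes tested. The 8 genes together held 500, 555 and 531 CPM in the day 12 libraries, against 688, 717 and 721 CPM in the day 7 libraries. The summed level was lower in every day 12 library, at 0.746 of that of day 7. AT3G45930 had 35.8, 41.7 and 41.9 CPM in the day 12 libraries, against 60.3, 61.2 and 64.3 CPM in the day 7 libraries. The groups did not overlap, and the log2 change was -0.64 ± 0.10 (SE, adjusted p = 0.00356). AT5G59970 had 46.9, 52.7 and 49.5 CPM in the day 12 libraries, against 75.1, 75.4 and 74.4 CPM in the day 7 libraries, a log2 change of -0.59 ± 0.09 (SE, adjusted p = 0.00309). AT3G46320 had 29.2, 33 and 35.1 CPM on day 12, against 48.6, 52.4 and 48.5 CPM on day 7, a log2 change of -0.63 ± 0.11 (SE, adjusted p = 0.00466). In these 3 genes of moderate level the libraries of the days were well apart. AT3G45930 and AT3G46320 share a coding stretch of 147 bases. AT5G59970 shares 95 bases with AT5G59690, as does AT1G07660 with AT1G07820. How reads of several origins were handled is not given, so the changes within each of these pairs may not be independent.

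The other H4 genes had smaller changes, whatever their level. AT5G59690, the highest of the class at a mean of 309 TPM, had 110, 129 and 117 CPM on day 12, against 154, 171 and 172 CPM on day 7, a log2 change of -0.48 ± 0.10 (SE, adjusted p = 0.00828). AT1G07820, at 226 TPM, had 110, 124 and 117 CPM on day 12, against 145, 140 and 154 CPM on day 7, with a log2 change of -0.32 ± 0.09 (SE, adjusted p = 0.0290). The libraries of both genes kept apart, but the call on AT1G07820 was lost on leaving out any 1 library other than day 12 replicate 2 (adjusted p of 0.0588 to 0.0950). AT3G53730 was called (log2 change -0.36, adjusted p = 0.0162), and not without day 7 replicate 2 or 3 (adjusted p = 0.0579 and 0.0521). HIS4, whose day 12 libraries (53.3 to 63.9 CPM) also lay below those of day 7 (65.1 to 71.8 CPM), was not called (adjusted p = 0.0853), except with library sizes alone (0.0483). AT1G07660 had 31.1 to 31.3 CPM on day 12, within the 29.9 to 39.5 CPM of day 7, and was not called either. With the counts of the 8 genes summed, since they encode 1 protein and some share up to 147 bases, the log2 change was -0.42.

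H3.1, the form placed on newly copied DNA, was lower in all 5 of its genes, beside 12.5% of all genes tested. Their sum was 276, 347 and 317 CPM in the day 12 libraries, against 485, 466 and 472 CPM in the day 7 libraries, a ratio of 0.661. The lowest day 7 library lay well above the highest day 12 library. AT5G65360, at 320 TPM the highest of the class, had 94.8, 117 and 116 CPM on day 12, against 181, 167 and 179 CPM on day 7, with a log2 change of -0.69 ± 0.10 (SE, adjusted p = 0.00331). AT5G10400 had 62.4, 77.8 and 66.1 CPM on day 12, against 103, 107 and 108 CPM on day 7, with a log2 change of -0.62 ± 0.10 (SE, adjusted p = 0.00404). AT1G09200 had 86.3, 111 and 92.3 CPM on day 12, against 143, 134 and 131 CPM on day 7, with a log2 change of -0.49 ± 0.11 (SE, adjusted p = 0.0127). None of the 3 had overlapping days. AT5G10390, which lies 577 bases from AT5G10400 on the same strand of chromosome 5, had 24.3 to 31.5 CPM on day 12 and 38.2 to 40.7 CPM on day 7, with a log2 change of -0.46 (adjusted p = 0.0247). The call on AT1G09200 was lost without day 7 replicate 1 (adjusted p = 0.0553), and that on AT5G10390 without any 1 day 7 library or day 12 replicate 1 (adjusted p of 0.0600 to 0.0803).

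AT3G27360, the remaining H3.1 gene, had 8.57, 11.3 and 11.4 CPM on day 12, against 19.2, 17.4 and 15.8 CPM on day 7. Its log2 change was -0.75 ± 0.17 (SE, adjusted p = 0.0125), and it was not called without day 7 replicate 1 (adjusted p = 0.0546). Its place in the order of levels is uncertain. Its TPM (mean of 124) was 4.89 times higher relative to its counts per length than that of the median member, and 39.4% of the gene overlaps AT3G27380. The part of the overlap in this gap was not tested.

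Canonical H2A fell in 3 of 4 genes, beside 12.5% of all genes tested. HTA10, the highest at 219 TPM, had 91.4, 108 and 92.3 CPM on day 12, against 156, 146 and 137 CPM on day 7, a log2 change of -0.59 ± 0.10 (SE, adjusted p = 0.00499). HTA13 had 32.3, 36.4 and 30.3 CPM on day 12, against 59.4, 53.6 and 54.3 CPM on day 7, a log2 change of -0.75 ± 0.11 (SE, adjusted p = 0.00271). HTA2 had 43.2, 47.7 and 53.8 CPM on day 12, against 70.5, 65.6 and 65.5 CPM on day 7, a log2 change of -0.49 ± 0.10 (SE, adjusted p = 0.0111). In each of the 3 all day 12 libraries were lower, and each call held on leaving out any 1 library. HTA10 and HTA13 share a coding stretch of 87 bases, and 10.4% of the HTA13 gene overlaps another annotated gene. With the handling of reads of several origins not given, the changes of HTA10 and HTA13 may not be independent. RAT5, also called HTA1 and known from Agrobacterium transformation, which its loss reduces, was not called: its 27.2, 37.9 and 29.4 CPM on day 12 overlapped the 39.0, 37.1 and 28.8 CPM of day 7 (log2 change -0.14 ± 0.16 SE, adjusted p = 0.556). A test of whether RAT5 differed from the other genes of its class was not made.

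Canonical H2B had the widest range of changes of the canonical core classes. Of 9 tested H2B genes 8 were lower, beside 12.5% of all genes tested. Its 10 genes summed to 699, 845 and 799 CPM in the day 12 libraries, against 1027, 1040 and 1077 CPM in the day 7 libraries. The 4 genes of highest level, HTB9, HTB2, HTB4 and HTB11 at 309 to 377 TPM, changed by -0.42 to -0.33 on the log2 scale. HTB9 had 133, 154 and 149 CPM on day 12, against 175, 197 and 194 CPM on day 7 (log2 change -0.37 ± 0.10 SE, adjusted p = 0.0220). HTB2 had 143, 181 and 152 CPM on day 12, against 195, 198 and 206 CPM on day 7 (log2 change -0.33 ± 0.10 SE, adjusted p = 0.0454). HTB11 had 116, 131 and 123 CPM on day 12, against 165, 158 and 171 CPM on day 7 (log2 change -0.42 ± 0.09 SE, adjusted p = 0.00993). The days did not overlap in any of these, but some calls lay near the threshold and were lost with fewer libraries. HTB9 was not called without day 7 replicate 2 or 3 or day 12 replicate 1 (adjusted p of 0.0695 to 0.0814), and HTB4 without any 1 day 7 library or day 12 replicate 1 (0.0641 to 0.0911). HTB2 was called only with all libraries or without day 12 replicate 2 (0.102 to 0.139 without any other), and not with RLE scaling factors (0.0547) or without the ribosomal loci (0.0538), nor with TPM rescaled without them (0.0653). Over the libraries left out, the log2 changes stayed between -0.43 and -0.30 for HTB9, -0.44 and -0.28 for HTB4, and -0.44 and -0.26 for HTB2. Of the HTB9 gene 37.3% overlaps 2 other annotated genes, whose reads cannot be told apart without the strand setting.

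The larger falls were in H2B genes of lower level. AT2G37470, at 65.1 TPM, had 28.6, 32.1 and 30.9 CPM on day 12, against 61.4, 56.6 and 58.1 CPM on day 7, a log2 change of -0.94 ± 0.10 (SE, adjusted p = 0.00143). AT3G53650, at 22.7 TPM, had 7.35, 11.4 and 9.74 CPM on day 12, against 21.1, 19.8 and 17.5 CPM on day 7, a log2 change of -1.03 ± 0.18 (SE, adjusted p = 0.00575). Both were near 2 times lower, with every day 12 library below every day 7 library, and both calls held without any 1 library. AT3G09480, at 9.59 TPM, had 2.24 to 2.87 CPM on day 12 and 5.03 to 9.11 CPM on day 7 (log2 change -1.35, adjusted p = 0.0145); it was not called without day 7 replicate 1 (0.0598) or day 12 replicate 1 (0.0547). HTB1 was lower by a log2 change of -0.60 (adjusted p = 0.0118). AT2G28720, the 1 canonical core gene with a positive change, had 4.20 to 7.20 CPM on day 12 and 3.26 to 4.58 CPM on day 7 and was not called (log2 change 0.44 ± 0.29 SE, adjusted p = 0.295). AT5G02570 failed the count filter, with 1, 5 and 4 counts on day 12 and 3, 8 and 11 on day 7. The 95% exact counting interval of the ratio of 0.501 was 0.212 to 1.1. That gene lies wholly inside the H2A.W gene HTA12 on the other strand, and reads from the 2 genes cannot be told apart here.

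**Figure D3:**
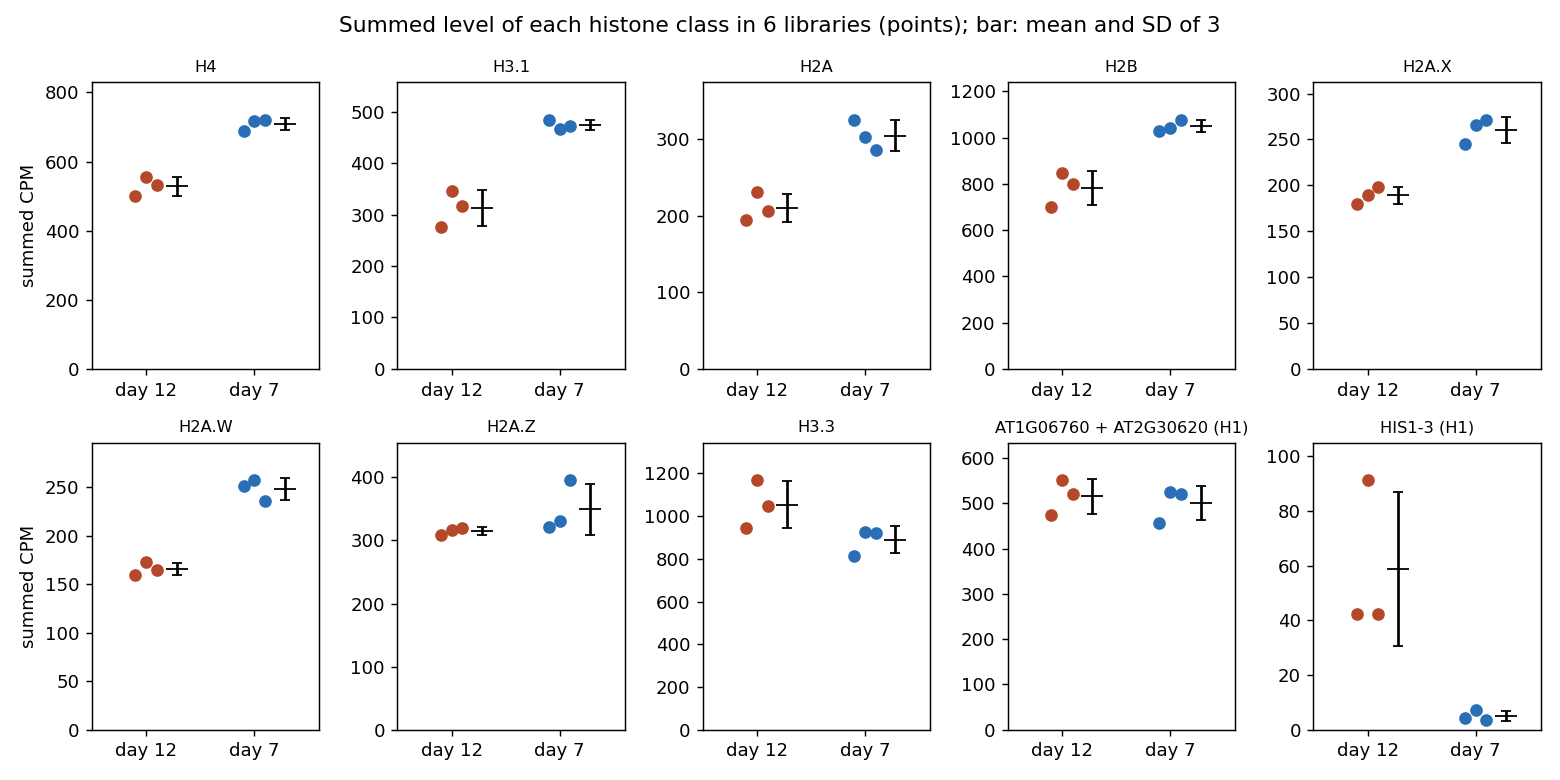
Summed CPM of each histone class in the 3 day 12 libraries (left in each panel) and the 3 day 7 libraries (right); the bar beside each group is the mean with the SD, and every vertical axis starts at 0. H4, H3.1, H2A, H2B, H2A.X and H2A.W, and by less H2A.Z, are lower in all day 12 libraries, H3.3 is higher in all of them, from 947 to 1167 CPM against 815 to 928 CPM, and AT1G06760 with AT2G30620 overlap between the days. The edgeR fit of the summed H3.3 counts was not called (log2 change 0.25, adjusted p = 0.112). In TPM the sums overlapped between the days for H3.3, and likewise for H4, H3.1, H2A, H2B, H2A.X and H2A.Z. Of the core classes shown, only H2A.W was also lower in all day 12 libraries by TPM.

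H3.3, the replacement form of H3 that marks transcribed genes, was called lower in none of its 3 genes, which were among the members of highest level. AT4G40040, the highest of all 44 at a mean of 639 TPM, had 511, 638 and 521 CPM on day 12, against 414, 454 and 476 CPM on day 7. All day 12 libraries were higher, and the log2 change was 0.31 ± 0.11 (SE, adjusted p = 0.0653). With the replicate number as a block it was called higher (log2 change 0.31, adjusted p = 0.0402), as it was by DESeq2 (adjusted p = 0.0380). AT5G10980, at 475 TPM, had 242, 281 and 270 CPM on day 12, against 233, 263 and 243 CPM on day 7, and the days overlapped (log2 change 0.10 ± 0.09 SE, adjusted p = 0.472). AT4G40030, whose annotated start lies 42 bases beyond the end of AT4G40040 on the minus strand of chromosome 4, had 194 to 258 CPM on day 12 and 169 to 210 CPM on day 7 (log2 change 0.26 ± 0.13 SE, adjusted p = 0.176). The shares of the 3 genes in the H3.3 total overlapped between days for AT4G40040, at 45.7% on day 12 and 43.1% on day 7, and for AT4G40030, at 22.5% on day 12 and 22.0% on day 7. That of AT5G10980 was lower in all day 12 libraries, at 31.9 ± 1.07% on day 12 and 34.9 ± 1.28% on day 7 (SD, n = 3 per day).

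The balance within H3 was therefore read inside each library, where the ribosomal share cancels. H3.1 made up 32.9%, 33.1% and 33.8% of the TPM of H3.1 and H3.3 in the day 12 libraries, against 49.0%, 44.7% and 45.8% in the day 7 libraries. The day 12 libraries lay within 1 percentage point of each other and below all day 7 libraries. The difference was -13.2 percentage points, and it ranged from -14.1 to -12.0 on leaving out 1 library. Without AT3G27360, whose TPM is uncertain, the share was 30.1 ± 0.36% on day 12 and 43.1 ± 2.24% on day 7 (SD, n = 3 per day), a difference of -13.0 points; this setting was chosen after seeing the data. The log2 ratio of replication-dependent to variant counts was 0.06, 0.09 and 0.09 on day 12, against 0.61, 0.49 and 0.47 on day 7, a difference of -0.45 (-0.41 in TPM). Summed, the replication-dependent genes held 1833 ± 155 CPM on day 12 and 2535 ± 17.7 CPM on day 7, and the variants 1735 ± 128 CPM on day 12 and 1762 ± 99.8 CPM on day 7 (SD, n = 3 per day). The variants' sums overlapped between the days, while those of the replication-dependent genes did not. The variant sum was mostly H3.3, at 1054 CPM on day 12 and 889 CPM on day 7, a ratio of 1.19. The ratios of H2A.X (0.726), H2A.W (0.668) and CENH3 (0.686) were close to the 0.723 of the replication-dependent genes, so the sum does not describe all variants. These sums and shares are descriptions, with no test except for the summed counts of H4, H3.1 and H3.3. In the edgeR fit of those, H4 (log2 change -0.42, adjusted p = 0.00779) and H3.1 (-0.60, 0.00446) were called lower. The H3.3 sum was not called (log2 change 0.25, adjusted p = 0.112).

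**Figure D4:**
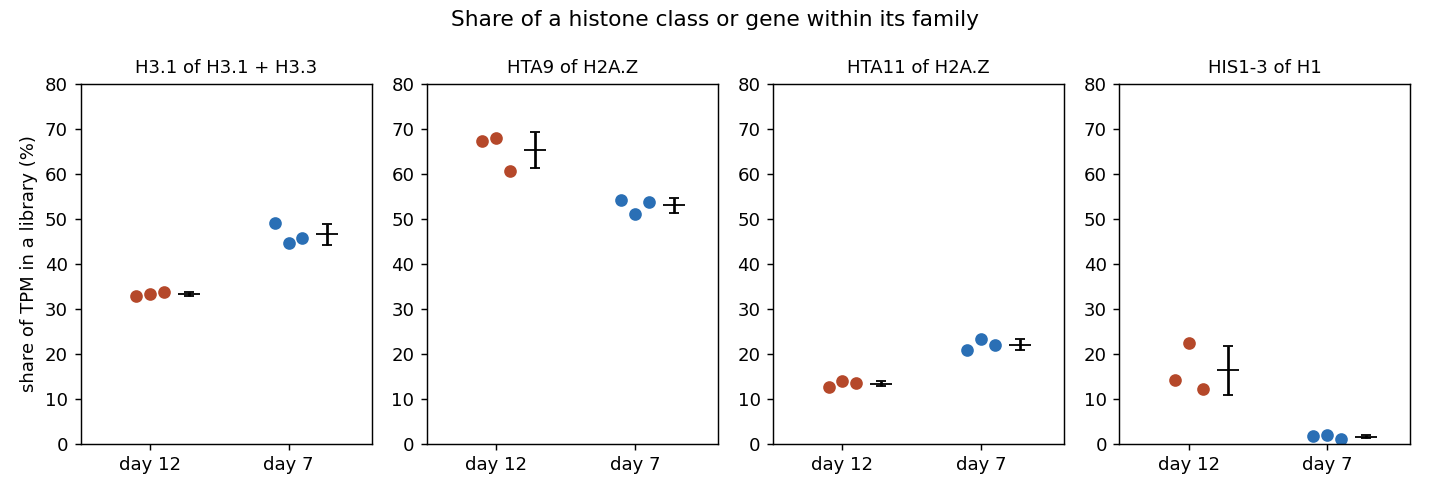
Share of TPM within a family in each library, for H3.1 of H3.1 plus H3.3, HTA9 and HTA11 of H2A.Z, and HIS1-3 of H1; day 12 is left of day 7 in each panel, and bars give the mean and SD of 3 libraries. The days do not overlap in any of the 4 panels: H3.1 lies near 33% on day 12 and at 44.7% to 49.0% on day 7.

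CENH3, encoded by HTR12, replaces H3 at centromeres and in plants is loaded mainly in G2. It had 9.08, 13.1 and 9.10 CPM on day 12, against 16.7, 14.9 and 13.9 CPM on day 7. Every day 12 library was lower, yet the gene was not called (log2 change -0.53 ± 0.19 SE, adjusted p = 0.0674). It was called lower with upper-quartile factors (adjusted p = 0.0491), with TPM rescaled without ribosomal loci (0.0355) and without day 12 replicate 2 (0.0224). The other variant that failed the count filter besides HTA4 was AT1G08170, an H2B of the H2B.S class, known from seeds. It had 3, 4 and 2 counts on day 12 and 0, 1 and 0 on day 7. The ratio of 9.91 had a 95% exact counting interval of 1.37 to 434, which covers counting error only.

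Both H2A.X genes, whose proteins carry the phosphorylation motif that marks DNA breaks, were lower. GAMMA-H2AX (HTA3) had 104, 103 and 117 CPM on day 12, against 146, 156 and 161 CPM on day 7, a log2 change of -0.51 ± 0.09 (SE, adjusted p = 0.00544). H2AXA (HTA5) had 75.6, 86.4 and 81.5 CPM on day 12, against 98.6, 111 and 111 CPM on day 7, a log2 change of -0.39 ± 0.09 (SE, adjusted p = 0.0156). The days were apart in both, but the call on H2AXA was lost without day 7 replicate 2 (0.0597), day 7 replicate 3 (0.0554) or day 12 replicate 1 (0.0564). Of the GAMMA-H2AX gene 51.3% overlaps other annotated genes, whose reads cannot be told apart without the strand setting.

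H2A.W, the variant of heterochromatin, has 3 genes with an SPKK motif in the tail. HTA6, at 277 TPM, had 100, 113 and 105 CPM on day 12, against 170, 180 and 154 CPM on day 7, a log2 change of -0.66 ± 0.10 (SE, adjusted p = 0.00298). HTA7 had 55.0, 53.9 and 55.7 CPM on day 12, against 77.5, 73.6 and 78.0 CPM on day 7, a log2 change of -0.48 ± 0.08 (SE, adjusted p = 0.00499). Both held without any 1 library, and in both the days were apart. HTA12 had only 4.08 to 5.16 CPM on day 12 and 3.14 to 4.08 CPM on day 7 and was not called (log2 change 0.29 ± 0.27 SE, adjusted p = 0.463).

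The H2A.Z genes, whose product sits at the first nucleosome of genes and in regulated gene bodies, differed in their calls; the difference between them was not tested. HTA11 had 43.5, 48.6 and 49.8 CPM on day 12, against 74.5, 85.8 and 98.4 CPM on day 7, a log2 change of -0.87 ± 0.12 (SE, adjusted p = 0.00257). This was the largest fall of any variant called lower, and it held without any 1 library. HTA9, the highest H2A gene at 372 TPM, had 218, 225 and 210 CPM on day 12, against 183, 180 and 223 CPM on day 7, and the days overlapped (log2 change 0.15 ± 0.10 SE, adjusted p = 0.306). HTA8 had 47.7, 43.2 and 60.8 CPM on day 12, against 63.1, 65.6 and 74.0 CPM on day 7 (log2 change -0.43 ± 0.13 SE, adjusted p = 0.0452), and its call was lost without any 1 library other than day 12 replicate 3 (0.0758 to 0.141) and with TPM rescaled without ribosomal loci (0.123). HTA4 had 0 counts in all 6 libraries, which allows up to 0.269 to 0.635 CPM in a library (3 counts).

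Within H2A.Z the makeup shifted between its genes. HTA9 held 67.2%, 67.9% and 60.6% of H2A.Z TPM in the day 12 libraries, against 54.1%, 51.0% and 53.8% in the day 7 libraries. HTA11 held 12.7%, 13.9% and 13.5% in the day 12 libraries, against 20.8%, 23.3% and 22.0% in the day 7 libraries. Neither share overlapped between days, while that of HTA8 did (21.4 ± 4.0% on day 12 and 25 ± 0.73% on day 7). Of all H2A TPM, H2A.Z held 36.9 ± 1.01% on day 12 and 30.9 ± 2.88% on day 7 (SD, n = 3 per day). Its summed level was not higher: H2A.Z held 309 to 320 CPM in the day 12 libraries and 321 to 395 CPM in the day 7 libraries, a ratio of 0.903, against 0.690 for canonical H2A and 0.668 for H2A.W. H2A.W held 18.9 ± 0.23% on day 12 and 21.5 ± 1.34% on day 7. The H2A.X share overlapped between days, at 18.5% to 20.3% on day 12 and 19.2% to 20.6% on day 7.

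**Figure D5:**
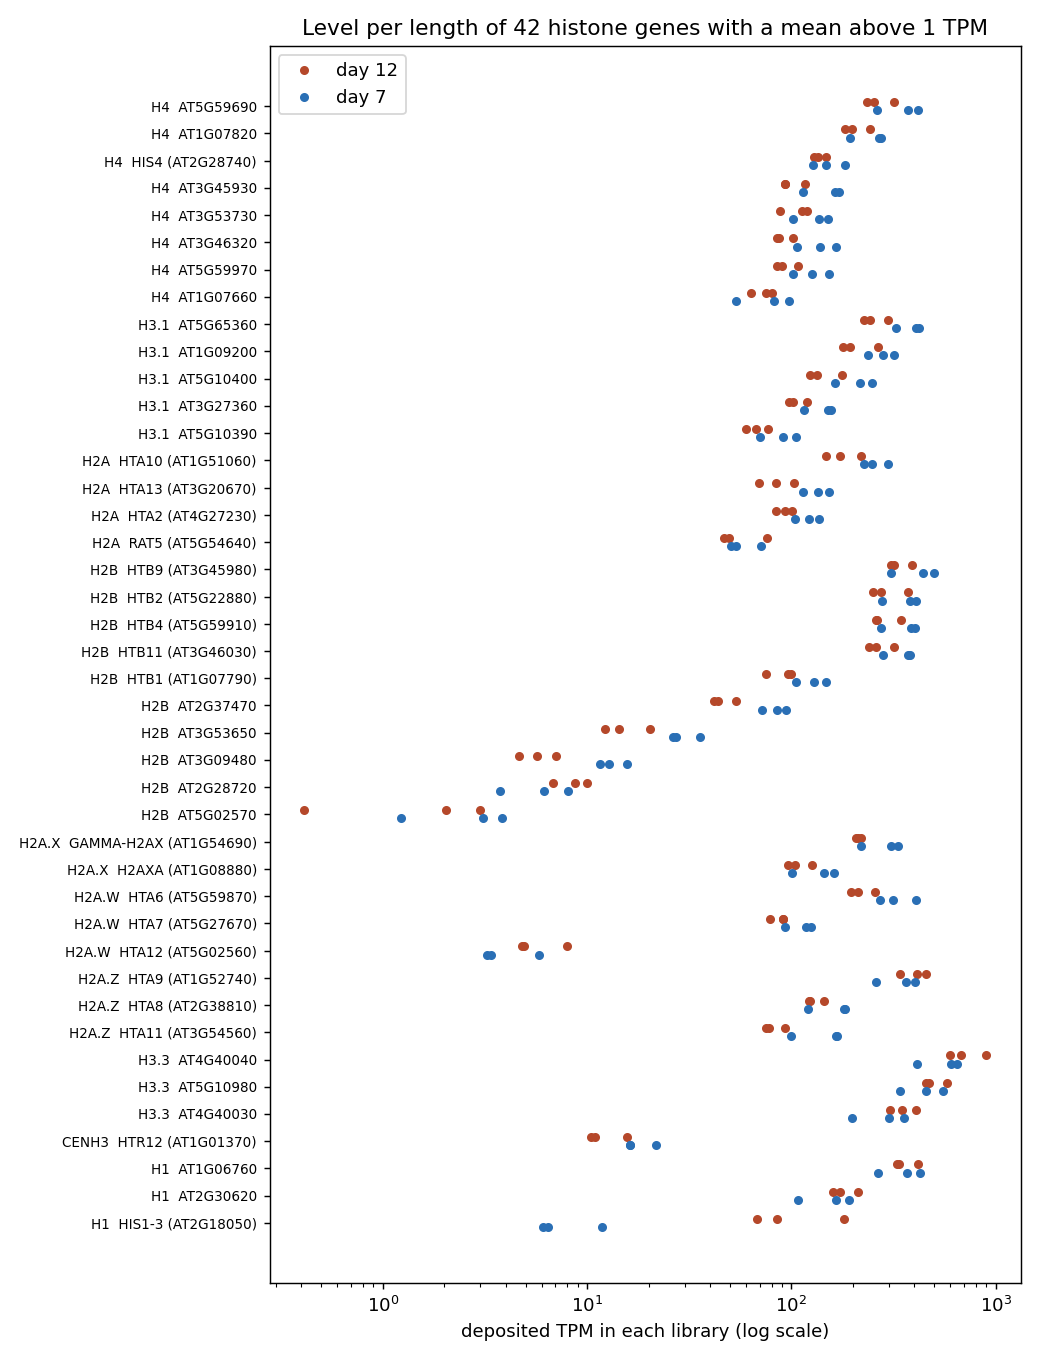
Deposited TPM of 42 histone genes in each library on a log axis, by class and by mean level within a class; day 12 points stand above day 7 points. The H3.3 gene AT4G40040 is highest, H4, H3.1 and H2B are each spread over several genes, and HIS1-3 is the gene whose days are farthest apart.

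Of the linker histones 1 gene was higher. HIS1-3, a short H1 known from drought and abscisic acid responses and, in leaves, from guard cells, was the only member called higher. It lies on chromosome 2 at 7845923 to 7847031 (TAIR10.1, plus strand) and has 2 coding exons and 167 residues. It had 42.3, 91.1 and 42.3 CPM on day 12, against 4.35, 7.09 and 3.65 CPM on day 7. The lowest day 12 library was above every day 7 library, and day 12 replicate 2 stood above the other two. The log2 change was 3.52 ± 0.44 (SE, adjusted p = 0.00432), with a range of 3.04 to 3.88 and a highest adjusted p of 0.0280 on leaving out 1 library. HIS1-3 held 14.2%, 22.4% and 12.2% of H1 TPM in the day 12 libraries, against 1.69%, 1.90% and 1.13% in the day 7 libraries.

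The other two H1 genes, which encode the main linker histones, were not called. AT1G06760, at 357 TPM, had 259, 304 and 296 CPM on day 12, against 276, 307 and 300 CPM on day 7 (log2 change -0.04 ± 0.09 SE, adjusted p = 0.797). AT2G30620, at 168 TPM, had 216, 247 and 224 CPM on day 12, against 182, 219 and 222 CPM on day 7 (log2 change 0.14 ± 0.11 SE, adjusted p = 0.357). The days overlapped in both. Of the AT1G06760 gene 38.5% overlaps 2 other annotated genes, with the same limit on its reads. The sum of the 3 linker genes was 574 ± 63.0 CPM on day 12 and 507 ± 38.7 CPM on day 7 (SD, n = 3 per day), with overlapping libraries.

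Gene structure followed the classes. The coding part was 1 exon in 23 of 27 replication-dependent genes, which included all H4, H3.1 and canonical H2B genes, while the 4 canonical H2A genes, 13 of 14 variants and the 3 linker genes had several coding exons. Of 22 tested genes with 1 coding exon 19 were lower, and of 19 with several 9 were lower and 1 was higher, beside 12.5% lower and 12.7% higher of all genes tested. With only 1 member called higher, the octamer could not have divided the calls by direction. Of the 10 members that hold it 7 were lower, with log2 changes of -0.75 to 0.31. Of the 31 tested without it 21 were lower and 1 was higher, beside the same shares of all genes tested. Within the replication-dependent genes the median log2 change was -0.59 in the 7 with the octamer and -0.46 in the 19 tested without it. In H2B, 6 of 7 tested genes with the hexamer and 2 of 2 without it were lower. These are counts over few genes that share class and sequence, and no test was made on them.

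Genes that work with histones were read from lists beside the members. Of 16 genes of histone chaperones and assembly 3 were lower and 2 higher, with a median log2 change of -0.10. Those shares are near the 12.5% and 12.7% of all genes tested, so the counts say nothing about the list, and its genes are given one by one. ASF1B, which carries H3 and H4 to assembly factors, had 28.6, 22.4 and 28.2 CPM on day 12, against 43.0, 41.7 and 46.5 CPM on day 7 (log2 change -0.74, adjusted p = 0.00459). FAS1, a subunit of the complex that deposits H3.1 with H4 behind the replication fork, averaged 22.0 CPM on day 12 and 32.9 CPM on day 7 (adjusted p = 0.0146, and 0.0546 without day 7 replicate 1). HIRA, which deposits H3.3, averaged 35.1 CPM on day 12 and 32.2 CPM on day 7 and was not called (adjusted p = 0.441). The third gene lower, AT4G37210 (log2 change -0.32, adjusted p = 0.0374), was not called on leaving out any 1 library (0.0554 to 0.136) or by DESeq2 (0.0756). The 2 higher were SPT16, of the FACT complex (log2 change 0.29, adjusted p = 0.0412), and ATRX, an H3.3 chaperone (log2 change 0.42, adjusted p = 0.0454). Both calls were lost with upper-quartile factors (0.0679 and 0.0646) and with library sizes alone. SPT16 was not called on leaving out any 1 library other than day 12 replicate 3 (0.0792 to 0.119), nor ATRX without any 1 day 7 library or day 12 replicate 1 (0.0574 to 0.141).

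Of 3 genes that act on H3.1, 2 were lower, beside 12.5% of all genes tested, and 1 of these 2 calls was not stable. ATXR6, which methylates lysine 27 of H3.1, had 7.45, 6.97 and 6.99 CPM on day 12, against 14.3, 13.2 and 12.3 CPM on day 7 (log2 change -0.89 ± 0.16 SE, adjusted p = 0.00624). TSK, which reads newly placed H3.1, averaged 15 CPM on day 12 and 22.4 CPM on day 7. Its call (adjusted p = 0.0478) was lost without day 7 replicate 1 or 3 or day 12 replicate 2 or 3 (0.105 to 0.141), with RLE factors (0.0504), by limma-voom (0.0586) and by DESeq2 (0.0673). Of 6 genes of H2A.Z and H2A.W exchange 1 was lower and 1 higher, near the 12.5% and 12.7% of all genes tested. DDM1, a remodeller that acts in heterochromatin, was lower at 65.2 ± 2.76 CPM on day 12 and 98.4 ± 10.6 CPM on day 7 (log2 change -0.59, adjusted p = 0.00494). INO80, the ATPase of another remodeller, was higher at 300.4 ± 52.5 CPM on day 12 and 146 ± 19.6 CPM on day 7 (log2 change 1.04, adjusted p = 0.00304). PIE1, ARP6, SEF and AT2G47210, the rest of that list, were not called. Of 5 further H3 genes 1 passed the filter, HTR11, with overlapping days (4.26 ± 0.63 CPM on day 12 and 4.30 ± 0.61 CPM on day 7, adjusted p = 0.998).

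Markers of dividing cells were lower in the same libraries as the replication-dependent histones. Of 11 S phase enzymes 9 were lower, beside 12.5% of all genes tested, with sums of 665 to 744 CPM on day 12 and 1011 to 1056 CPM on day 7, a ratio of 0.674. PCNA2, the sliding clamp of DNA synthesis, had 45.6, 49.1 and 47.6 CPM on day 12, against 96.2, 84.0 and 92.4 CPM on day 7 (log2 change -0.94, adjusted p = 0.00141). TSO2 and MCM4 were next by adjusted p (0.00243 and 0.00271), with log2 changes of -0.70 and -0.78. Of 9 mitotic markers 8 were lower, beside the same 12.5%, with sums of 447 to 451 CPM on day 12 and 715 to 802 CPM on day 7, a ratio of 0.603. KN, CYCB1;1 and AUR1 had the lowest adjusted p, with log2 changes of -0.89, -0.96 and -0.87. The lists were chosen with earlier results of these data known, so these counts are no independent support for a fall. The ratio of the replication-dependent histones was 0.723, H4 0.746 and H3.1 0.661, each over the same libraries. The part of these markers, and that of the fall of the leaf markers, in the histone values was not tested.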

How the data were processed

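Per the labels' protocols, total RNA of callus went into TruSeq RNA libraries. The deposited counts are whole-number read counts per locus, not normalized, and the deposited TPM values cover the same 36793 loci. The submitters' processing notes name STAR 2.7.10a, RSEM 1.3.1 and the build TAIR10; how each table was made from them, how strand was set and what was done with reads of several origins is not given in the sources used here. All columns were matched to libraries by name (0 unmatched). Total counts were 9944126, 10426265 and 4927953 for day 12 replicates 1, 2 and 3, and 7412972, 10746277 and 8901518 for day 7. In every pair of replicates the counts differed beyond counting noise (chi-square of 10.5 to 44.2 per gene).

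The test was that of edgeR 4.0.16 (R 4.3.3): filterByExpr left 18364 genes, TMM factors were 0.960 to 1.04, and robust quasi-likelihood models had day as the only term, with Benjamini-Hochberg adjustment over all genes tested and a threshold of 0.05. A standard error is the log2 change over the root of its F statistic. CPM values use the summed counts of the genes that passed the filter and the TMM factors. The procedure was also run on simulated counts of independent libraries, whose changed genes had larger true changes than most members. That run does not bear on calls of small changes. Libraries of the same number shared deviations from the mean of their day (correlations of 0.151 to 0.244, against -0.162 to 0.006 for other pairs), so the numbers were taken to pair libraries, although the labels name no pairing; a blocked fit was made as well.

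Gene structure, coding stretches and the 250 bases before gene starts were read from RefSeq TAIR10.1 for all 44 members, by locus and from the first-numbered transcript. Names follow that annotation (36629 loci matched), and other members are given by locus. Members, lists and classes were chosen with earlier results of these data known. Values in each library are given for the 2 members of highest mean TPM and up to 3 called members of lowest adjusted p per class; from each list the 3 called genes with the lowest adjusted p are named, or fewer, or the single gene of lowest p where none was called. The other genes named were added after their values were seen. Intervals (95%, exact) and the limit for a count of 0 (3 counts) cover counting error only. Alternatives were RLE, upper-quartile and no scaling factors, no count filter, DESeq2 1.42.0, limma 3.58.1 (voom; log2(TPM + 1) and log2(TPM + 0.1) at a minimum mean of 1 TPM; and log2(TPM + 1) with no minimum or rescaled without the ribosomal loci), no organelle or ribosomal loci, summed identical proteins and each library left out.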

Additional observations from a re-analysis of the deposited data

How the results depend on the processing

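The 28 members called lower, 22 of them replication-dependent and 6 variant, were 27 to 29 in count fits with other scaling factors, filters or tools, without organelle or ribosomal loci, and with a replicate block (28 lower). With identical proteins summed, the 8 H4 loci share 1 value, which was called lower, although AT1G07660 and HIS4 were not called alone; that fit gives no count of single members. With the replicate block 2 members were called higher, 1 of them a variant (AT4G40040), and likewise 2 and 1 by DESeq2; the pairing changed no other call of a member. Fits of log2(TPM + 1), log2(TPM + 0.1) and log2(TPM + 1) without a filter called 2090, 2069 and 693 genes in all, 4, 5 and 1 members lower, 3, 4 and 1 replication-dependent genes lower, and 1, 1 and 0 variants lower. Rescaled without ribosomal loci, TPM gave 3816 genes and 27 members lower; HTA8 (0.123), HTB2 (0.0653), AT4G37210, TSK, LBD16, SPT16 and ATRX then lost their calls. Without 1 library, 2529 to 4342 genes were called (2529 and 2910 on dropping replicates 1 and 2 of day 7), and 15 to 22 replication-dependent genes and 4 to 6 variants were lower; of 246 member results 209 kept their direction and side of the threshold. HIS1-3 was called higher in all 20 alternatives. Near 0, AT1G06760 turned from -0.04 to 0.0523, 0.0525 and 0.0523 in the 3 TPM fits as deposited and 0.0049 with rescaled TPM, and ranged from -0.0863 to 0.0343 without 1 library (log2). HTR11 turned from -0.0014 to 0.0108 with RLE factors, 0.0115 by DESeq2, 0.0343 by voom, 0.0405, 0.0422 and 0.0405 in the TPM fits, 0.0031 without organelle and 0.0103 without ribosomal loci, and ranged from -0.137 to 0.0953 without 1 library. Apart from the TPM scaling, the cause was not tested. Members under 50 counts in all (3) could not be tested at this depth.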
